A study of Homo sapiens with 12 samples.

Results

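The genes examined were 47 mitosis and spindle genes, chosen by name for their part in entry into mitosis, chromosome segregation and cell division, out of 35238 genes in the table. They comprised 10 regulators of mitotic entry, 8 genes of the spindle checkpoint and of anaphase, 3 chromosomal passenger genes, 8 kinetochore genes, 8 spindle assembly genes, 8 genes of the central spindle and of cytokinesis, and 2 genes of chromosome structure. Their mRNA was measured by bulk RNA sequencing in HK-2 cells, an established line of human kidney proximal tubule epithelium. The cells received 10 nM of a scrambled siRNA (SCR) or of an siRNA against POLR2A (siB), together with the vehicle (DMSO) or with aristolochic acid I (AAI, 25 µM), a nephrotoxic plant compound that forms DNA adducts, for 24 hours from the time of transfection. The 4 groups were SCR DMSO, SCR AAI, siB DMSO and siB AAI, with 3 libraries each and 12 in all. The knockdown was transient and rested on 1 siRNA. Among genes that mark the proximal tubule in the kidney, LRP2, CUBN, SLC34A1, SLC22A6, AQP1 and HNF4A stayed at or below 2.26 CPM (counts per 1000000 reads) in every library, whereas GGT1 ran from 96 to 184 CPM and the renal epithelial genes PAX8, KRT8 and KRT18 ran from 200 to 809 CPM. Of the same epithelial markers, PAX2 stayed at or below 1.66 CPM and CDH1 ran from 2.76 to 25.2 CPM.

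Cells enter mitosis when CDK1, a kinase that needs cyclin B, is freed from the inhibitory phosphate that WEE1 adds and CDC25 phosphatases remove. PLK1 and the Aurora kinases then build the spindle, the checkpoint proteins hold back the anaphase-promoting complex until every kinetochore is attached, and CDC20 and UBE2C let that complex destroy cyclin B and securin. Most of these genes are transcribed late in the cell cycle by FOXM1, B-MYB and the MuvB complex, which acts at short promoter elements known as cell cycle genes homology regions (CHR), often beside CCAAT boxes bound by NF-Y.

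Promoter sequences show how far the members share these elements. RefSeq windows of 300 bases (250 bases before to 50 after the start, GRCh38.p14) were found for 39 of the 47 members among 27305 windows in the table. The letters TTTGAA, the CHR core, stood on either strand in 26 of 39 members (66.7%) and in 15.4% of all windows. The related letters TTCGAA stood in 2 members (5.13%) and in 1.45% of all windows, and CCAAT stood in 28 members (71.8%) and in 35.7% of all windows. A window holding several of these motifs counted under each. A CHR core of either spelling together with CCAAT was present in 23 members (59.0%) against 6.58% of all windows. Such a match describes the letters of the window and not binding. The windows below, written 5′ to 3′ on the gene's strand with TTTGAA and CCAAT in capitals on either strand (TTCAAA and ATTGG where the match is on the other strand), belong to 5 members that responded to AAI and to CDK1 and MAD2L1, which moved otherwise. They lie at chr5:69166900-69167199 (plus strand) for CCNB1, chr1:43358731-43359030 (plus) for CDC20, chr16:23678639-23678938 (plus) for PLK1, chr5:138178862-138179161 (plus) for KIF20A, chr20:3786701-3787000 (plus) for CDC25B, chr10:60778081-60778380 (plus) for CDK1 and chr4:120066799-120067098 (minus) for MAD2L1.
CCNB1: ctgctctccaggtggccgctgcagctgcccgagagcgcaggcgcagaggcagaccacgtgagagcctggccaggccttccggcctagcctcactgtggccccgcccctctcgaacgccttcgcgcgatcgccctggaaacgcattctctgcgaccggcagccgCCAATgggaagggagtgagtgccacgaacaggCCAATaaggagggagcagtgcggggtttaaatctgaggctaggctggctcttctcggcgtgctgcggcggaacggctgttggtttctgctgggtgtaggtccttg
CDC20: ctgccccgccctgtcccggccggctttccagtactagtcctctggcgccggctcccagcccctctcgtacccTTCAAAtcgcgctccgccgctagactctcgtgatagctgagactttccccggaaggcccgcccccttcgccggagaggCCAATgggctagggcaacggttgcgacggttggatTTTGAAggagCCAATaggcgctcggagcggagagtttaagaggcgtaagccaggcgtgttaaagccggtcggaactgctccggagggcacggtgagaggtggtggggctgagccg
PLK1: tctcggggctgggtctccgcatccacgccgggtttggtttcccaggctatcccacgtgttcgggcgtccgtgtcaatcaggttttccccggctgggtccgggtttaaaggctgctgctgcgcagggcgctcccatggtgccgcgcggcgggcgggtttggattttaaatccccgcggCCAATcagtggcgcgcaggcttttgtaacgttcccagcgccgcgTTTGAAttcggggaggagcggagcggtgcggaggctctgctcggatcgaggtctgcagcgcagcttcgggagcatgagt
KIF20A: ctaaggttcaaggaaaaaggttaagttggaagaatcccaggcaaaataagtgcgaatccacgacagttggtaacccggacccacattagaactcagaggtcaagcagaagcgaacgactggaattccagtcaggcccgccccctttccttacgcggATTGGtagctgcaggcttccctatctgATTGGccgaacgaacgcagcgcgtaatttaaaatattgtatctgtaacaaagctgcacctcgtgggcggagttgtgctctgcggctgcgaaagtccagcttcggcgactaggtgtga
CDC25B: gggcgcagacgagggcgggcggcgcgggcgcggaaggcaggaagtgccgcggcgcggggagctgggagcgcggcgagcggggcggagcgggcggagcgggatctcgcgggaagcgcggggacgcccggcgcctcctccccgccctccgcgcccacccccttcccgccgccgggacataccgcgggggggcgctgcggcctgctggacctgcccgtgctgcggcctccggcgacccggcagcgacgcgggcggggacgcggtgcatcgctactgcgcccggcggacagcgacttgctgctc
CDK1: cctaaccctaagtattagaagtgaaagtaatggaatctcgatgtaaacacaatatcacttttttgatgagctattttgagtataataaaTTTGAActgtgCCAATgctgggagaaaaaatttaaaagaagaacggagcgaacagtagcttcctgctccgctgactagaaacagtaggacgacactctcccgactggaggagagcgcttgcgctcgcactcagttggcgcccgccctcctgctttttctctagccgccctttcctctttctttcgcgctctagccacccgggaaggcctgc
MAD2L1: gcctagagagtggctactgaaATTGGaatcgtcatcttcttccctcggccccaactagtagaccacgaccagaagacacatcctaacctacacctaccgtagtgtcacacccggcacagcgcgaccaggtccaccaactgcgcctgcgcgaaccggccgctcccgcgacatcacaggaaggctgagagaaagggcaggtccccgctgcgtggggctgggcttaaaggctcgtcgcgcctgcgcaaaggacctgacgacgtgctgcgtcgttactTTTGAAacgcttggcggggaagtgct
The CDC20 window held 2 copies of TTTGAA and 2 of CCAAT, and those of CCNB1 and KIF20A held 2 CCAAT boxes each and no TTTGAA. In the CDC25B window neither set of letters was found. CDK1 and MAD2L1 held both motifs. Among the 7 members with a window that were lower after AAI in both cell populations, 4 held TTTGAA and 6 held CCAAT, against 22 and 22 of the other 32.

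The libraries held from 15844015 to 42805294 reads, recovered from the deposited values, and every member was at 3.85 CPM or more in every library. Per kilobase of transcript, the mean level of the members in SCR DMSO ran from 3.24 CPM for CENPE to 207 CPM for UBE2C, with CDC20 at 173, CCNB1 at 90.7, CDK1 at 68.8 and KIF20A at 40.4 CPM per kilobase. POLR2A, the target of the siRNA and the gene for the largest RNA polymerase II subunit, was at 258, 288 and 306 CPM in SCR DMSO, at 673, 719 and 729 CPM in SCR AAI, at 138, 143 and 139 CPM in siB DMSO and at 266, 220 and 210 CPM in siB AAI, so each siB group lay below its SCR group. The deepest library, SCR DMSO replicate 2, stood apart from its group, and not for the mitotic genes alone. It had the lowest value of its group for 34 of 47 members, and 22 members were lower there by 1 or more on the log2 scale than the mean of replicates 1 and 3. The same counts were not made over all genes. HMMR, a spindle protein, was at 60.3, 3.85 and 34.2 CPM in SCR DMSO replicates 1, 2 and 3, and TOP2A, the topoisomerase that untangles sister chromatids, was at 588, 52.2 and 342 CPM. Over the 47 members this departure had a Spearman correlation of 0.84 with the GC content of the canonical transcript, of -0.55 with its length and of -0.65 with the genomic span of the gene, and over the 13966 genes with these features the values were 0.73, -0.42 and -0.45. These are descriptions across genes of 1 library that share its depth and preparation, and the part of RNA quality or library chemistry in them was not tested.

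**Figure D1:**
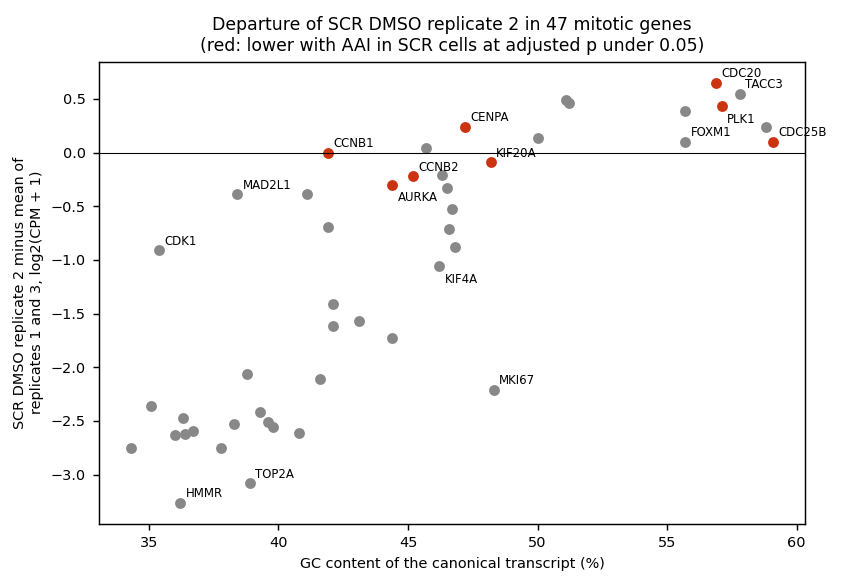
Each point is 1 of 47 mitotic genes. The x axis gives the GC content of its canonical transcript (%) and the y axis its level in SCR DMSO replicate 2 minus the mean of replicates 1 and 3 on the log2(CPM + 1) scale. Members at low GC sit down to -3.26 (HMMR), whereas the 8 members that were lower with AAI in SCR cells, in red, sit between -0.30 and 0.65.

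The first comparison asked how control cells responded to AAI. In SCR cells, 8 of 47 members fell and none rose at an adjusted p under 0.05 (limma on log2(CPM + 1), Benjamini-Hochberg adjustment over 14228 genes), and 7 of the 8 fell by at least 2-fold. Of all genes tested, 3.36% fell, 8.98% rose, and 10.5% passed with at least a 2-fold change in either direction. Falls of at least 2-fold that passed numbered 389 of the 14228 genes. The 8 were KIF20A, CCNB1, CDC25B, AURKA, CDC20, CCNB2, PLK1 and CENPA. The median change of the members was -0.24 on the log2 scale and that of all genes tested 0.18. A negative change was seen in 28 of 47 members and in 5430 of the 14228 genes. In bulk RNA, fewer cells in mitosis and less mRNA per cell cannot be told apart. Nothing in the labels says that the replicates were separate cultures, so these p-values measure the spread between the libraries, which may be technical.

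Regulators of mitotic entry held 5 of the 8. CCNB1, cyclin B1, was at 188, 184 and 178 CPM in SCR DMSO and at 77.2, 62.4 and 72.6 CPM in SCR AAI. The AAI libraries lay far below the DMSO libraries, with means of 184 ± 4.9 and 70.7 ± 7.57 CPM (SD, n = 3), 2.59-fold lower. The change was -1.37 ± 0.19 (SE, log2 scale; limma adjusted p = 0.00297). CCNB2, cyclin B2, fell from 70.7, 60.1 and 69.7 to 39.3, 27 and 29.8 CPM, again without overlap (-1.05 ± 0.23, limma adjusted p = 0.0228). CDC25B, the phosphatase that starts CDK1 activation, was at 234, 251 and 232 CPM with DMSO and at 108, 86.3 and 89.8 CPM with AAI. Its groups did not overlap either, and it was 2.52-fold lower (-1.33 ± 0.19, limma adjusted p = 0.0035).

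The mitotic kinases of this group moved the same way. AURKA, the centrosomal Aurora kinase, was at 181, 147 and 180 CPM with DMSO and at 83.8, 61 and 76.8 CPM with AAI (-1.19 ± 0.22, limma adjusted p = 0.01). PLK1 was at 128, 203 and 178 CPM with DMSO and at 74.2, 89.2 and 81.8 CPM with AAI (-1.02 ± 0.23, limma adjusted p = 0.0262). In both kinases every AAI library lay below every DMSO library. The other 5 regulators of entry did not pass. CDK1, the kinase that cyclin B activates, was at 185, 80.1 and 124 CPM with DMSO and at 244, 150 and 197 CPM with AAI, so its groups overlapped around a higher mean (0.65 ± 0.33, limma adjusted p = 0.255). With the replicate number as a block it passed as higher (limma adjusted p = 0.0467). FOXM1, the transcription factor of late cell cycle genes, was at 180, 207 and 206 CPM with DMSO and at 222, 218 and 224 CPM with AAI. Its AAI libraries were all above the DMSO libraries, by a small margin that did not pass (0.17 ± 0.18, limma adjusted p = 0.595). WEE1, the kinase that restrains CDK1, was at 107, 56.4 and 62.4 CPM with DMSO and at 47.9, 37.6 and 36.9 CPM with AAI. Its groups did not overlap, but the spread of the DMSO libraries was wide (-0.82 ± 0.29, limma adjusted p = 0.113), and it passed as lower with the replicate block (limma adjusted p = 0.0274). CDC25C, another activator of CDK1, had a change of -0.63 and CCNA2, cyclin A2, of -0.11.

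Because 2 genes of 1 library share its depth and scaling, a ratio between them does not depend on either. It does not remove a departure that goes with GC content, in which the paired genes differed. GC content was 41.9% for CCNB1 and 35.4% for CDK1, and 59.1% for CDC25B and 46.7% for WEE1. SCR DMSO replicate 2 had the highest ratio of its group in both pairs. CCNB1 reads per CDK1 read were 1.02, 2.29 and 1.44 in SCR DMSO and 0.316, 0.415 and 0.368 in SCR AAI. In siB DMSO the ratios were 0.977, 1.16 and 1.06 and in siB AAI 0.256, 0.383 and 0.381. All 6 AAI libraries were below all 6 DMSO libraries. The ratio of CDC25B to WEE1 was 2.2, 4.44 and 3.71 in SCR DMSO and 2.26, 2.3 and 2.44 in SCR AAI, which overlapped, whereas in siB cells it was 3.47, 3.99 and 5.33 with DMSO and 1.65, 1.67 and 2.12 with AAI, which did not. These pairs were set side by side after their values were seen and carry no test.

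**Figure D2:**
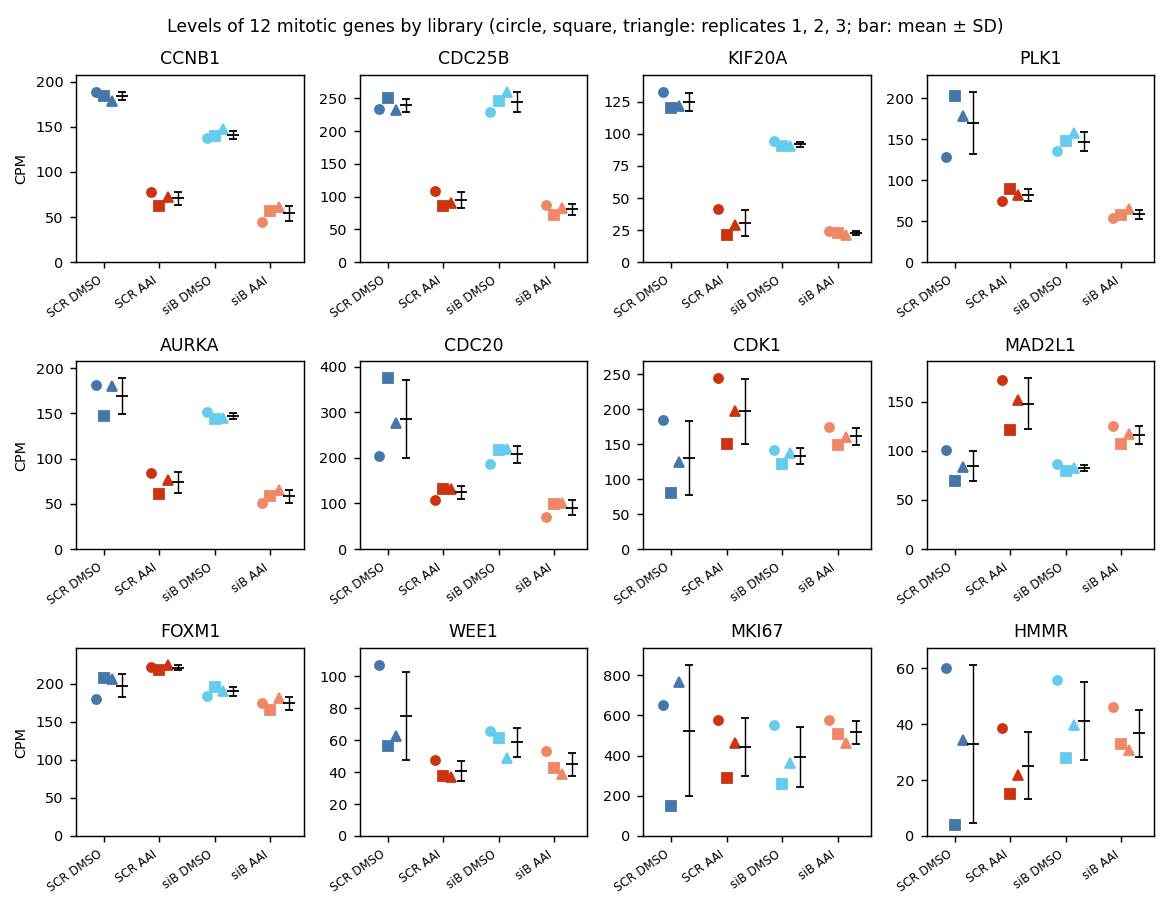
CPM of 12 mitotic genes in each library, with circle, square and triangle for replicates 1, 2 and 3 and a bar for the mean ± SD of each group (n = 3, linear axes from 0). CCNB1, CDC25B, KIF20A, PLK1, AURKA and CDC20 drop with AAI in both SCR and siB cells, MAD2L1 lies higher with AAI in both, and the square of SCR DMSO lies lowest in its group for MKI67 (151 CPM) and HMMR (3.85 CPM).

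Among the checkpoint and anaphase genes, CDC20, the activator of the anaphase-promoting complex, fell. It was at 203, 374 and 277 CPM in SCR DMSO and at 108, 132 and 132 CPM in SCR AAI, without overlap (-1.15 ± 0.26, limma adjusted p = 0.0255). MAD2L1, the checkpoint protein that holds CDC20 inactive, was at 101, 69.8 and 83.7 CPM with DMSO and at 172, 121 and 152 CPM with AAI. Every AAI library lay above every DMSO library (0.80 ± 0.23, limma adjusted p = 0.0646), and the change passed as higher with the replicate block (limma adjusted p = 0.0181). UBE2C, the ubiquitin-conjugating enzyme of the same complex, and PTTG1, securin, had changes of -0.47 and -0.53 with groups that did not overlap and did not pass. The checkpoint kinases BUB1, BUB1B and TTK and their partner BUB3 had changes between -0.24 and 0.22.

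CENPA, the histone variant that marks centromeres, was the 1 kinetochore member to pass, at 53.7, 63.5 and 53.3 CPM with DMSO and 30.6, 33.9 and 28.5 CPM with AAI (-0.85 ± 0.21, limma adjusted p = 0.0372). KIF20A, a kinesin needed at the central spindle for cytokinesis, had the largest change of the 47, from 133, 120 and 122 CPM to 41.1, 20.9 and 29.2 CPM. The groups were far apart, 4.12-fold in the means (-2.06 ± 0.27, limma adjusted p = 0.00227). Its relatives did not pass: KIF20B had a change of 0.11, KIF4A of -0.32, KIF14 of -0.56 and KIF23 of 0.35. The other genes of the central spindle and cytokinesis, PRC1, ANLN and ECT2, had changes of -0.31, 0.17 and 0.40. None of the 8 spindle assembly genes passed, namely KIF11, TPX2, TACC3, CKAP2, CKAP5, NUSAP1, HMMR and DLGAP5, whose changes ran from -0.64 to 0.64. The passenger genes AURKB, INCENP and BIRC5 ran from -0.41 to 0.30, and the kinetochore genes CENPE, CENPF, NDC80, NUF2, KNSTRN, KIF2C and KIF18A from -0.82 to 0.20. MKI67, the proliferation antigen Ki-67, was at 652, 151 and 764 CPM with DMSO and at 576, 287 and 462 CPM with AAI, and TOP2A was at 472, 181 and 287 CPM with AAI. Both were spread so widely in SCR DMSO that no difference was detectable (0.01 ± 0.59 and 0.40 ± 0.82).

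The count of members that fell depended on single libraries. Without SCR DMSO replicate 2 it was 16, with a median change of -0.69, and included all 8, while the share of all genes that fell went from 3.36% to 8.7%. The additional genes were BUB1, CENPE, CKAP5, DLGAP5, KIF14, NUSAP1, TPX2 and WEE1, with changes from -1.61 (CENPE) to -0.76 (TPX2). The 22 members that were low in that library had a median change of 0.11 with it and of -0.71 without it, and the other 25 of -0.52 and -0.60. The 22 were picked by their values in that library, so the direction of their shift was fixed by the choice. Without SCR DMSO replicate 3 or without SCR AAI replicate 2 the count was 3, without SCR AAI replicate 3 it was 4, without SCR AAI replicate 1 it was 5, and without SCR DMSO replicate 1 it was 6 with a median change of 0.08, and the share of all genes that fell in these 5 fits ran from 0.829% to 2.4%. CCNB1, CDC25B and KIF20A passed in every one of these fits. With the replicate block 9 members fell, WEE1 beside the 8, and CDK1 and MAD2L1 rose, where 6.4% of all genes fell and 14.7% rose. With GC content and transcript length removed from each library 17 members fell, and 24 with the block as well, the 8 included in each. The shares of all genes that fell in these fits rose too, to 14.4% and 20.1%. There CDK1 (0.17) and MAD2L1 (0.49) did not pass (limma adjusted p = 0.404 and 0.0857 with the block).

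The same comparison was made in knockdown cells, where the libraries were more alike. The median SD of the members on the log2 scale was 0.54 in SCR DMSO and 0.33 in SCR AAI, against 0.14 in siB DMSO and 0.15 in siB AAI. With AAI, 20 of 47 members fell, 8 of them by at least 2-fold, and MAD2L1 rose. Of 14928 genes tested 21.8% fell, 30.4% rose and 19.7% changed by at least 2-fold in either direction. Falls of at least 2-fold that passed numbered 864 of the 14928 genes. The 8 members that fell in SCR cells were all among the 20. The median change of the members was -0.27 and that of all genes 0.10. A negative change was seen in 37 of 47 members and in 6587 of the 14928 genes.

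**Figure D3:**
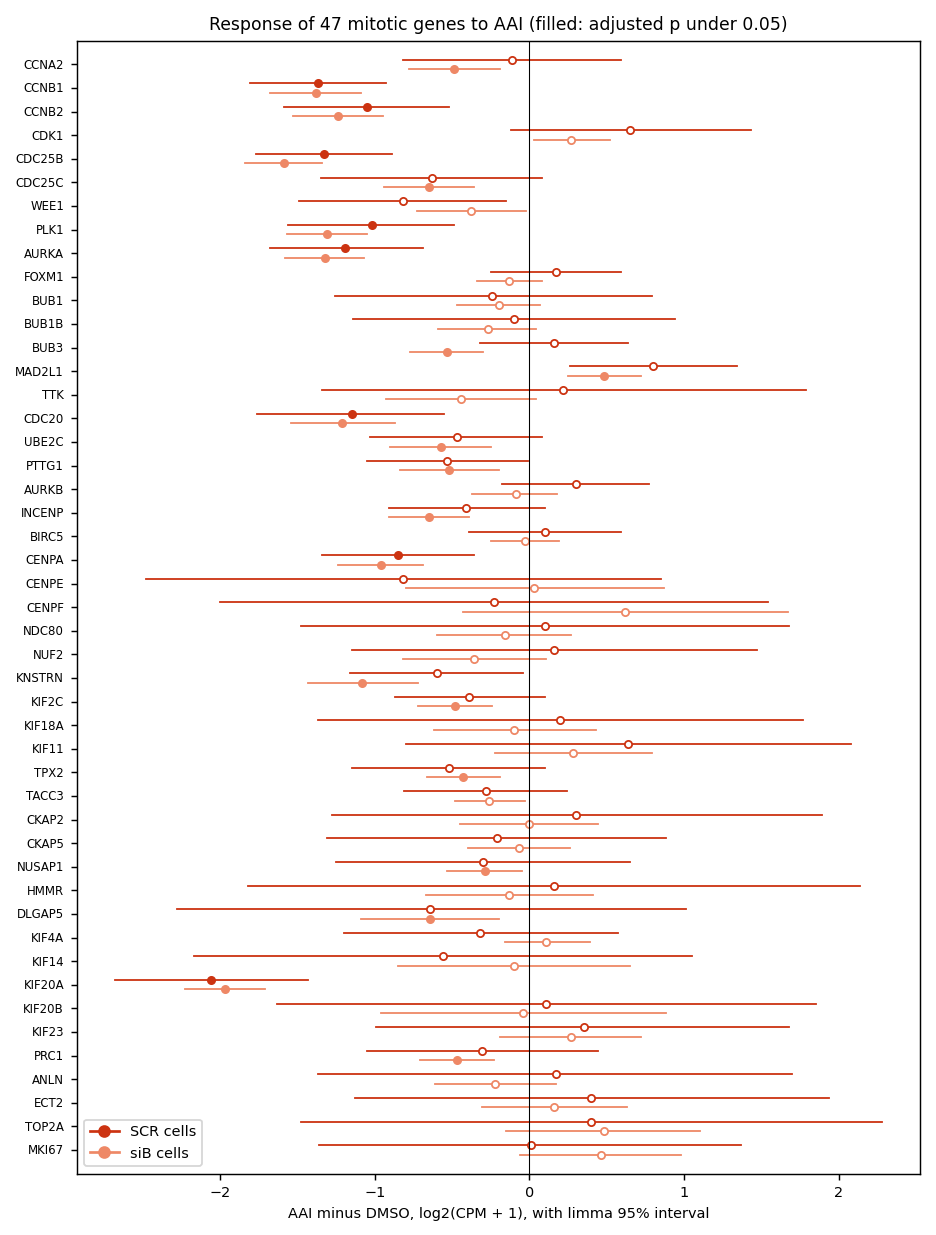
Change with AAI on the log2(CPM + 1) scale for the 47 genes in SCR cells (red) and siB cells (orange), with the limma 95% interval, not adjusted for multiple tests. Filled points passed at an adjusted p under 0.05. KIF20A lies farthest to the left in both, at -2.06 and -1.97, and MAD2L1 is filled to the right in siB cells at 0.48.

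KIF20A was at 94.3, 90.2 and 90.9 CPM in siB DMSO and at 24.7, 22.6 and 20.9 CPM in siB AAI, 4.04-fold lower and with hardly any spread in either group (-1.97 ± 0.11, limma adjusted p = 2.6e-06). CDC25B was at 229, 246 and 259 CPM with DMSO and at 87.8, 71.6 and 82.9 CPM with AAI, 3.03-fold lower (-1.59 ± 0.11, limma adjusted p = 6.8e-06). CCNB1 was at 138, 140 and 147 CPM with DMSO and at 44.4, 57 and 60.9 CPM with AAI, 2.61-fold lower (-1.38 ± 0.13, limma adjusted p = 3.6e-05). In each of the 3 genes the AAI libraries lay well under the DMSO libraries.

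The Aurora and Polo kinases gave like values. AURKA was at 151, 144 and 145 CPM with DMSO and at 51, 58.9 and 64.9 CPM with AAI (change -1.32), and PLK1 was at 135, 148 and 157 CPM with DMSO and at 53.3, 57.3 and 64.6 CPM with AAI (change -1.31). CCNB2 was at 61.2, 55.4 and 64.4 CPM with DMSO and at 23.7, 23.3 and 28 CPM with AAI (change -1.24). The groups were apart in all 3 genes, with limma adjusted p between 2.3e-05 and 6e-05. CDC25C was at 23, 23.1 and 22 CPM with DMSO and at 13.7, 14.9 and 13.8 CPM with AAI, without overlap (-0.65 ± 0.13, limma adjusted p = 0.00265). CCNA2 fell by 0.49 (limma adjusted p = 0.0128). WEE1 was at 66, 61.7 and 48.6 CPM with DMSO and at 53.1, 42.9 and 39.1 CPM with AAI, with overlap (-0.38 ± 0.16, limma adjusted p = 0.0705). CDK1 was at 141, 121 and 138 CPM with DMSO and at 174, 149 and 160 CPM with AAI, every AAI library above every DMSO library (0.27 ± 0.11, limma adjusted p = 0.0618). FOXM1 was at 184, 196 and 190 CPM with DMSO and at 175, 165 and 181 CPM with AAI, just below (-0.13 ± 0.09, limma adjusted p = 0.268).

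CDC20 was at 186, 217 and 220 CPM in siB DMSO and at 71.1, 98.7 and 101 CPM in siB AAI, without overlap (-1.21 ± 0.15, limma adjusted p = 1.6e-04), and MAD2L1 was at 86.1, 79.9 and 82.5 CPM and at 125, 107 and 117 CPM, every AAI library above (0.48 ± 0.10, limma adjusted p = 0.004). CDC20 reads per MAD2L1 read were 2.17, 2.71 and 2.66 with DMSO and 0.569, 0.923 and 0.869 with AAI in these cells, and 2.02, 5.36 and 3.31 against 0.628, 1.1 and 0.871 in SCR cells, again without overlap. These genes differed in GC content too (56.9% for CDC20 and 38.4% for MAD2L1). The rise of MAD2L1 did not pass once GC content and transcript length were removed (0.22, limma adjusted p = 0.126). BUB3, UBE2C and PTTG1 fell by 0.53, 0.57 and 0.52 on the log2 scale. PTTG1 has near-identical copies in the genome with which it may share reads, as KIF4A has, and its value is uncertain to that extent.

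At the kinetochore, KNSTRN, a spindle and kinetochore protein that helps separate sister chromatids, was at 31, 34.3 and 33.6 CPM with DMSO and at 12.2, 16.4 and 17.2 CPM with AAI, and CENPA was at 40.5, 45.8 and 41.1 CPM and at 20, 21.3 and 22.5 CPM. The groups did not overlap in either gene (KNSTRN -1.08 ± 0.16, limma adjusted p = 4.4e-04, and CENPA -0.96 ± 0.12, limma adjusted p = 2.1e-04). KIF2C, the kinesin that takes microtubules apart at the kinetochore, fell by 0.48, and INCENP, the scaffold of the passenger complex, by 0.65. INCENP was at 89.6, 89.1 and 80 CPM with DMSO and at 60.7, 50 and 53.8 CPM with AAI, without overlap. Its partners AURKB and BIRC5, survivin, had changes of -0.09 and -0.03 and did not pass.

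Of the spindle assembly genes, DLGAP5, TPX2 and NUSAP1, all microtubule-binding proteins, fell by 0.64, 0.43 and 0.29, and of the central spindle genes PRC1, which bundles antiparallel microtubules, fell by 0.47. In the annotation NUSAP1 and PRC1 each share most of their exons (97.8% and 88.4%) with a longer gene model on the same strand, so their reads may be split between the models. DLGAP5 and NUSAP1 each lost the call without siB DMSO replicate 3, siB AAI replicate 2 or siB AAI replicate 3, NUSAP1 also without siB DMSO replicate 1 or 2, PTTG1 without siB DMSO replicate 3 and CCNA2 without siB AAI replicate 3. The other 26 members did not pass. TOP2A was at 331, 135 and 188 CPM with DMSO and at 351, 258 and 251 CPM with AAI, and MKI67 at 552, 258 and 361 CPM and at 578, 506 and 462 CPM, both with overlap (0.48 ± 0.28 and 0.46 ± 0.23). Without siB DMSO replicate 1, both passed as higher, as did CDK1, CENPF, KIF11 and KIF23 beside MAD2L1, 7 members in all, where 34.8% of all genes rose. In a fit of all 4 groups 15 members fell, where 13.7% of all genes did, and CCNA2, DLGAP5, NUSAP1, PRC1 and TPX2 lost the call. With GC content and transcript length removed, 32 members fell and none rose, where 34.7% of all genes fell and 25.2% rose.

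Whether knockdown altered the AAI response was tested directly over all 12 libraries. No member had a difference between the responses that passed (limma, 15325 genes, 1.46% of which passed upward and 0.157% downward). Under an unadjusted p of 0.05 were 2032 of the 15325 genes and 1 member. That member was BUB3, which had a change with AAI of 0.16 in SCR cells and of -0.53 in siB cells, a difference of -0.69 (95% interval -1.16 to -0.23, limma adjusted p = 0.149). For CCNB1 the difference was -0.01 ± 0.21, for KIF20A 0.08 ± 0.29 and for CDC25B -0.26 ± 0.19 (SE, log2 scale). Across the 47 members the responses in SCR and siB cells, which share no library, had a Spearman correlation of 0.77. This is a description across genes that are not independent, from fits that included SCR DMSO replicate 2. Both responses also had a similar Spearman correlation with GC content, -0.49 in SCR and -0.48 in siB cells. Without that library the value in SCR cells was 0.09. The intervals of the members with a wide spread in SCR DMSO were broad, such as -2.08 to 2.23 for TOP2A, so a difference of several fold would not have been detectable there. Without SCR DMSO replicate 2, 10 members were under an unadjusted p of 0.05 and none passed. In that fit 3.25% of all genes passed upward and 3.34% downward. The median difference of the members was 0.17 without that library and -0.14 with it, and that of all genes 0.06 and -0.06.

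The comparison of siB with SCR cells under AAI asked what knockdown changed in injured cells. Here 2 of 47 members fell, BUB3 and AURKB, none rose and none changed by 2-fold. Of 14946 genes tested 3.79% fell, 5.49% rose and 3.67% changed by at least 2-fold. The median change was -0.20 for the members and 0.00 for all genes. A negative change was seen in 34 of 47 members and in 7433 of the 14946 genes. BUB3, which carries the checkpoint kinases to the kinetochore, was at 218, 193 and 240 CPM in SCR AAI and at 133, 152 and 156 CPM in siB AAI. Its groups did not overlap (-0.56 ± 0.15, limma adjusted p = 0.0412). AURKB, the kinase of the passenger complex, was at 127, 135 and 134 CPM in SCR AAI and at 79.4, 92.3 and 102 CPM in siB AAI, also apart (-0.54 ± 0.15, limma adjusted p = 0.0484).

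Both calls were close to the threshold. Each was lost without SCR AAI replicate 3 or without any 1 of the siB AAI replicates, and AURKB also without SCR AAI replicate 2. Same-numbered AAI libraries deviated together, and with the replicate number as a block 10 members fell and 1 rose. In that fit 13.8% of all genes fell and 15.2% rose, also far more than without the block. Those that fell were AURKB, BUB3, CCNA2, CCNB1, CDC20, CENPA, KIF20B, KNSTRN, PLK1 and TTK, from -0.76 (TTK, a checkpoint kinase, limma adjusted p = 3.2e-05) to -0.39 (CCNB1, limma adjusted p = 0.0373), and HMMR rose by 0.60 (limma adjusted p = 0.00113). CCNB1 was at 77.2, 62.4 and 72.6 CPM in SCR AAI and at 44.4, 57 and 60.9 CPM in siB AAI, which did not overlap. Likewise CDC20, PLK1, CENPA and KNSTRN were below in every siB AAI library without the groups meeting. TTK was at 40.7, 24.3 and 42.4 CPM in SCR AAI and at 16.2, 25.2 and 19.9 CPM in siB AAI, which overlapped.

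**Figure D4:**
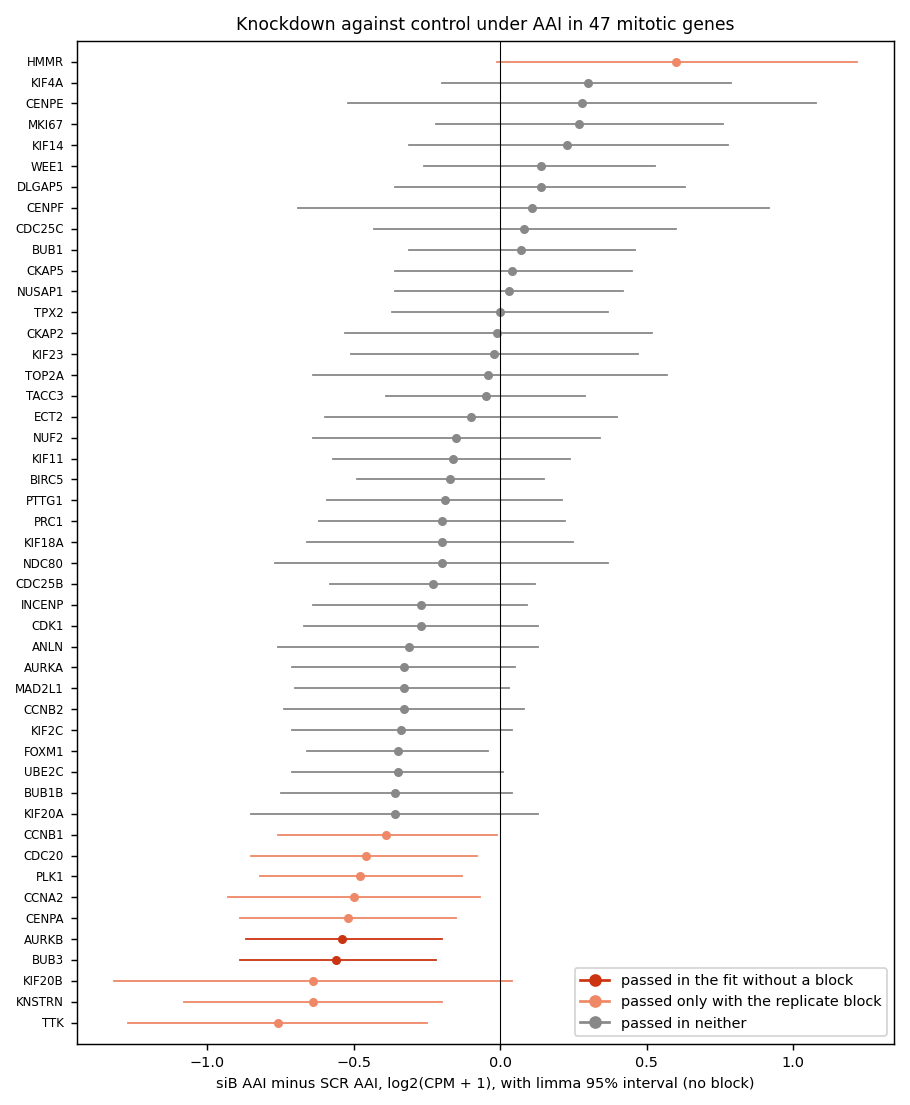
Difference between siB AAI and SCR AAI on the log2(CPM + 1) scale for the 47 genes, in order of size, with the limma 95% interval of the fit without a block, not adjusted for multiple tests. Red marks AURKB and BUB3, which passed without a block, and orange the genes that passed with the replicate block alone, from TTK at -0.76 to HMMR at 0.60.

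Without AAI, knockdown left no member past the test, and 0% of the 13606 genes tested passed in either direction (limma). The smallest limma adjusted p was 0.257 over all genes. Under an unadjusted p of 0.05 were 644 of the 13606 genes and 3 of the 47 members. The 3 members were CCNB1 (-0.37), KIF20A (-0.44) and CENPA (-0.41), whose siB DMSO libraries all lay below the SCR DMSO libraries. POLR2A itself did not pass in this comparison (-1.01 ± 0.13, limma adjusted p = 0.505), so the test had little reach. Without SCR DMSO replicate 2, 20 members were under an unadjusted p of 0.05 and none passed. The number of all genes under that unadjusted p was not counted in this fit.

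The wider mitotic machinery was examined in a list of 119 other genes, of which all 119 were tested. In SCR cells 2 rose with AAI (1.68%) and 4 fell (3.36%), against 8.98% and 3.36% of all genes. In siB cells 23 rose and 23 fell (19.3% each), against 30.4% and 21.8% of all genes, so these shares were about equal to or below those of all genes. Their median changes were 0.27 and 0.08, where those of the 47 members were -0.24 and -0.27. SCR DMSO replicate 2 departed in this list too, downward or upward by gene. In SCR DMSO, SMC4 was at 393, 41.3 and 228 CPM and UBE2S at 232, 653 and 287 CPM. The medians of the 119 genes and of their functional groups were not computed without that library, so those in SCR cells may depend on it. CDC25A, the phosphatase that acts earlier in the cycle than CDC25B, was at 46.5, 49.2 and 44.3 CPM in SCR DMSO and at 109, 95.7 and 120 CPM in SCR AAI, so the groups were apart in the opposite direction to CDC25B (1.19 ± 0.20, limma adjusted p = 0.00707). CDCA5, sororin, which protects cohesion of sister chromatids, rose by 1.21 in SCR cells and by 0.85 in siB cells, and CDC25A by 0.84 in siB cells. MASTL, the Greatwall kinase that restrains the phosphatase PP2A in mitosis, rose by 1.05 in siB cells and had a change of 1.04 in SCR cells that did not pass, whereas ENSA, a substrate of MASTL, fell by 0.93 in SCR cells.

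Among genes that fell, SPC24, a subunit of the NDC80 complex, had changes of -0.99 in SCR cells and -1.26 in siB cells, and CDCA3 of -0.98 in SCR cells. PIMREG and CENPI, a centromere protein, fell by 1.39 and 1.20 in siB cells. By function, the 17 genes of the anaphase-promoting complex and its regulators had median changes of 0.43 in SCR and 0.14 in siB cells. None passed in SCR cells, and in siB cells the subunits ANAPC1, ANAPC4 and CDC23 rose (17.6% of the 17) and FZR1, a coactivator, fell by 0.85 (5.88%). The condensin subunits had medians of 0.40 and 0.39, with 0 of 8 past the test in SCR cells and with 2 higher (25%) and 1 lower (12.5%) in siB cells. The MuvB and DREAM factors had medians of 0.18 and 0.13, with 0 of 12 past the test in SCR cells and with 2 higher and 2 lower in siB cells (16.7% each). Each of these shares lay below that of all genes. Other groups lay above it: in siB cells 30.4% of 23 other spindle and cytokinesis genes and 26.3% of 19 entry and exit regulators fell, against 21.8%. In SCR cells 10.5% of those regulators fell, against 3.36% of all genes. Of the inner and outer kinetochore genes 21.4% fell in siB cells, and of the cohesin and separase genes 8.33%. When siB AAI was set against SCR AAI, 6 of the 119 fell (5.04%, against 3.79% of all genes) and none rose, the farthest being NCAPH, a condensin subunit, at -0.91, SPC25 at -0.81 and CENPI at -0.73. NCAPH was at 87, 72.7 and 106 CPM in SCR AAI and at 41.7, 51.2 and 45.8 CPM in siB AAI, without overlap (limma adjusted p = 0.00947).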

How the data were processed

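Per the labels and the study's methods, the authors sequenced paired-end libraries, used the hg38 build with its UCSC gene models, and obtained gene counts and CPM through BioJupies. Aligner and strandedness are not given in the sources used here. The deposited values are log10 of CPM plus 1. CPM and whole reads were recovered from them (100% of values within 0.1 of a whole read in each library). A treatment field reads DMSO for every sample, so groups were taken from the titles. Tests were limma 3.58.1 (R 4.3.3, lmFit and eBayes with trend) on log2(CPM + 1), for each pair of groups alone or, for the interaction, over 12 libraries, on genes with at least 1 CPM in at least 3 of the libraries fitted, with Benjamini-Hochberg adjustment over all genes tested. The code of the fits was tested on simulated counts. These held no library-wide departure such as that of SCR DMSO replicate 2, so they say nothing of how the tests fare with it. The members and lists were chosen with earlier results of these data known, and support nothing beyond their values. Every member is named, and library values are printed for CCNB1, CDK1, WEE1, CDC25B, FOXM1, MKI67 and up to 10 members per comparison with the largest change among those that passed. MAD2L1, INCENP, TOP2A, HMMR, TTK and the ratios were shown in addition after their values were seen, and of the other mitotic genes up to 3 in each direction per comparison are named. Transcript features came from GENCODE 44. Same-numbered libraries were called paired where the deviations of every pair from the group means correlated above 0.1. This held for SCR AAI with SCR DMSO (0.42, 0.47 and 0.34 for replicates 1, 2 and 3) and for siB AAI with SCR AAI (0.61, 0.32 and 0.29), and not for the other comparisons. The labels do not say what a number marks. Alternatives were another pseudocount (0.1), other filters, scalings and models, a replicate block, each library left out, and the removal of GC content and transcript length.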

Additional observations from a re-analysis of the deposited data

How the results depend on the processing

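In the response of SCR cells to AAI, the count of members that fell was 8 and ran from 3 to 16 with a library left out. Members past 2-fold ran from 3 to 8 and the median from -0.69 to 0.08. With GC content and transcript length removed the count was 17, and 24 with a replicate block as well, where 14.4% and 20.1% of all genes fell. A rise of 1 member was seen without AC010970.2, a transcript that took up to 10.6% of the reads, and in a fit of all 4 groups (MAD2L1 in each), against 2 with a replicate block. Of all genes 9.92%, 18.1% and 14.7% rose in these fits. In siB cells the count that rose was 2 without AC010970.2, 5 with a replicate block, 0 with GC content and transcript length removed, and from 1 to 7 with a library left out. Of all genes 31.1%, 34%, 25.2% and from 23.6% to 34.8% rose in these fits, in that order. The count that fell there was 15 in a fit of all 4 groups, 22 with the block, 32 with GC content and length removed and 33 with both, with a median of -0.46 in each of the latter, and 17 to 22 with a library left out. In the same order, the shares of all genes that fell were 13.7%, 23.6%, 34.7%, 36.6% and from 16.8% to 22.7%. With median-ratio scaling 25 members and 4029 of 14834 genes fell in siB cells, with medians of -0.39 and -0.01. In SCR cells 9 members and 809 of 14190 genes fell with that scaling, with medians of -0.44 and -0.01. The medians of all genes, 0.18 in SCR and 0.10 in siB cells as reported, thus depended on the scaling. Same-numbered siB libraries were not paired by the rule (correlations of 0.21, 0.03 and 0.19). For siB against SCR under AAI, the count that fell was 1 with a pseudocount of 0.1, median-ratio scaling, all 4 groups or voom, 0 without a filter, with a mean CPM of 5 or without a trend, 10 with the replicate block, 10 with GC content and length removed and 22 with both, and 0 to 3 with a library left out. Of all genes 13.8% fell with the block, 8.91% with GC content and length removed and 25% with both. Genes that fell numbered 536 of 14946 with a pseudocount of 0.1, 642 of 14817 with median-ratio scaling and 521 of 14946 with voom. With all 4 groups 2.46% of all genes fell. The numbers were 344 of 25906 without a filter, 441 of 11728 with a mean CPM of 5 and 553 of 14946 without a trend. With a library left out 0.415% to 5.34% of all genes fell. The count that rose was 1 in both fits with the block and 0 to 2 with a library left out, and 0 to 1 members passed 2-fold. Of all genes 15.2% and 18.5% rose in the fits with the block, and 1.01% to 8.74% with a library left out. The 1 member to pass in an interaction fit was BUB3, with GC content and length removed and a replicate block (-0.80, limma adjusted p = 0.0389). In that fit 3.02% of all genes passed downward. The block changed no other call of the 2 paired comparisons than those given beside the results. Without AAI, no member passed in any fit, the replicate block included (limma). In the fit as reported 3 members were at an unadjusted p under 0.05, as were 644 of the 13606 genes tested. The causes of these shifts were not tested. The 2 settings that removed GC content and length were chosen after the data were seen and used fewer genes. For the 31 calls of single members, the alternatives kept the side of the threshold 470 times and lost it 57 times, with no change of direction. Members that had not passed could change direction, as TOP2A did without SCR DMSO replicate 2 (0.40 to -0.62). No member was near the limit of 3 reads, and the spread of SCR DMSO replicate 2 from its group limited what could be seen in low-GC members.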
